A study of Mus musculus with 12 samples.

Results

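Chemokines are small secreted or membrane-tethered proteins that attract leukocytes through G protein-coupled receptors, and the genes studied here are the chemokine ligands and chemokine receptors measured in mouse liver. Members were all protein-coding genes of the deposited count table with a symbol made of Ccl, Cxcl, Cx3cl or Xcl, or of Ccr, Cxcr, Cx3cr or Xcr, and a number with at most 1 letter after it. The rule gave 62 of 54532 genes, 44 of them ligand entries with 38 distinct symbols and 18 of them receptors. Ligand entries outnumber symbols because Ccl19, Ccl21a, Ccl21b and Ccl27a are annotated on a chromosome and again on separate scaffolds, and Ccl21c on 2 scaffolds. Cxcl11 is annotated as a polymorphic pseudogene and is therefore no member.

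The livers came from wild-type mice, on a chow diet per the study's title, 9 days after an adenovirus was given. ANG8 livers received a virus for overexpression of ANGPTL8, a secreted protein of the angiopoietin-like family that takes part in lipid metabolism, and Ad_GFP livers a control virus. ShANG8 livers received a virus for knockdown of Angptl8, and shCtrl livers the matching control virus. Each of the 4 groups had 3 libraries of bulk liver RNA, and all 12 libraries carried an adenovirus. The labels do not say that each library came from a separate mouse, so p-values measure the spread between these libraries, which may be technical.

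Inflammatory chemokines are made by resident and recruited cells of the liver, among them Kupffer cells, endothelial cells and hepatocytes, and draw in monocytes, neutrophils and lymphocytes. Many receptors bind several ligands, and many ligands bind several receptors, so a receptor is read together with its ligands below. In bulk tissue, fewer or more cells of a type and less or more RNA per cell cannot be told apart.

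Libraries held 12537083 to 15144312 counts. Levels are CPM values, read counts scaled to TMM-adjusted library size, and each change is a log2 fold change with its standard error (SE) from the quasi-likelihood test of edgeR on counts, with p-values adjusted by Benjamini-Hochberg over all 14686 genes tested and a call at an adjusted p under 0.05. Angptl8 averaged 217 CPM in ANG8 livers and 89.1 CPM in Ad_GFP livers (log2 fold change 1.28, SE 0.33, adjusted p 0.0201). The labels do not give the species of the overexpressed sequence, and counts of the mouse gene measure the overexpression only if that sequence is the mouse one. It averaged 122 CPM in shANG8 livers and 299 CPM in shCtrl livers, a difference that did not pass the test (log2 fold change -1.29, SE 0.33, adjusted p 0.235). Mitochondrially encoded genes took 22.5% to 43.8% of the counts in ANG8 libraries, 19.8% to 34.9% in Ad_GFP libraries, 19.3% to 22.9% in shANG8 libraries and 22.9% to 24.2% in shCtrl libraries.

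Of the 62 members, 30 passed the filter on low counts, 18 ligands and 12 receptors. Among the 32 that did not, 11 ligand entries had no count in any library, and the other 15 ligand entries and 6 receptors had at most 89 counts over all 12 libraries. Cx3cl1 and Ccr3 reached the filter only through their levels in ANG8 libraries, so their counts among the tested members depend on the group in which they were high. Per kilobase of exon, the ligands with the highest mean level over all libraries were Ccl5 at 39.8, Cxcl9 at 36.8, Cxcl12 at 17.0 and Ccl9 at 15.7 CPM per kb. Among the receptors, Cxcr4 had a mean level of 1.96, Cxcr3 of 1.44 and Ccr2 of 1.37 CPM per kb.

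**Figure D1:**
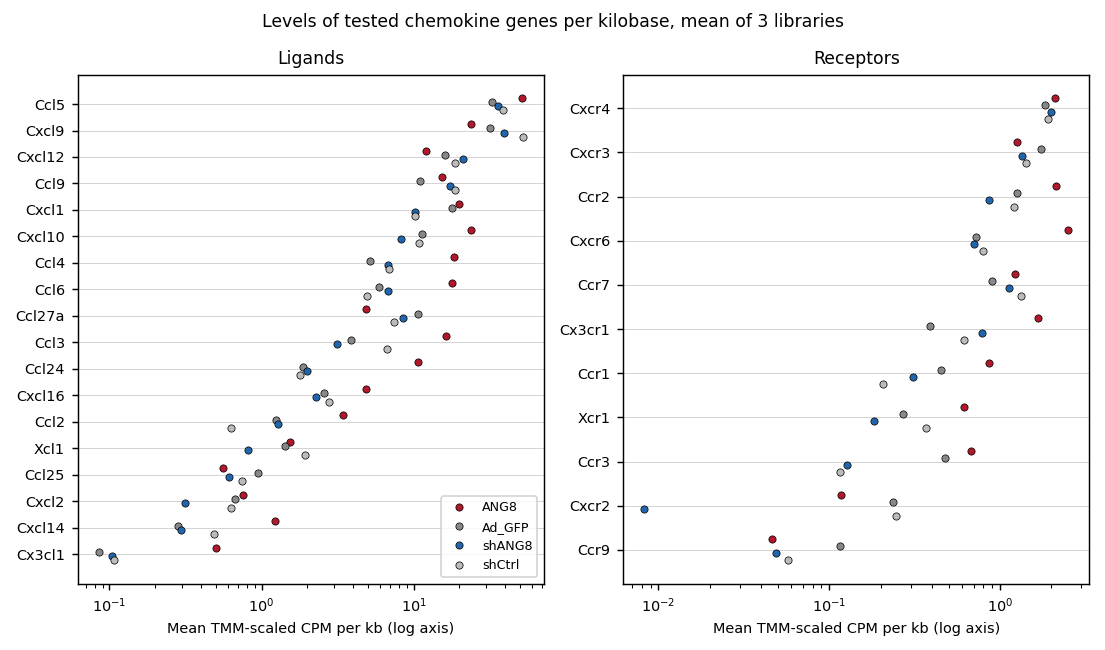
Mean level of 18 tested ligands (left) and 11 of the 12 tested receptors (right) in CPM per kilobase of exon, on a log axis, with 1 point for each group of 3 libraries. Genes are ordered by their mean over all 12 libraries, led by Ccl5 (39.8) among the ligands and Cxcr4 (1.96) among the receptors.

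In ANG8 livers, 7 chemokine ligands rose and 1 fell relative to Ad_GFP livers, and 3 receptors rose. The ligands that rose were Ccl24, Ccl3, Ccl4, Ccl6, Cx3cl1, Cxcl10 and Cxcl16, Ccl27a fell, and the receptors that rose included Cx3cr1 and Cxcr6. Called members made up 44.4% of the 18 tested ligands and 25.0% of the 12 tested receptors, beside 13.5% of all tested genes (7.08% higher and 6.39% lower). These shares are descriptions, since Cx3cl1 counts among the called ligands and was tested only through its ANG8 libraries. The median log2 fold change was 0.78 over the ligands and 0.64 over the receptors, beside -0.00 over all tested genes. The 3 ANG8 libraries all lay above the 3 Ad_GFP libraries for 10 ligands and 5 receptors and all below for 2 ligands and no receptor, beside 17.9% of all tested genes higher and 16.2% lower in this way.

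**Figure D2:**
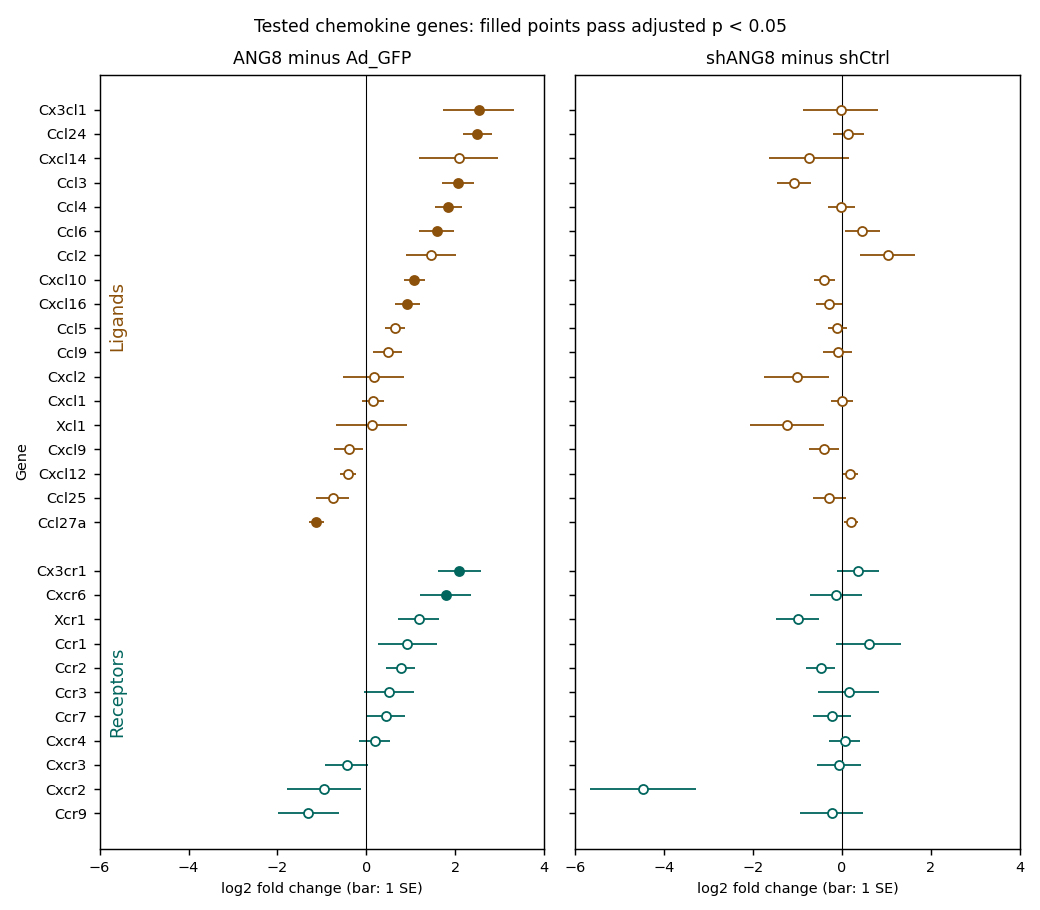
Log2 fold change with its SE for 29 of the 30 tested members under overexpression (ANG8 over Ad_GFP) and knockdown (shANG8 over shCtrl). Filled points passed the test, which holds for 10 of the members shown under overexpression and for 0 under knockdown; the knockdown value of Cxcr2 rests on 1 count in shANG8 libraries.

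Among the ligands of the CC class, Ccl24, an eotaxin that attracts eosinophils through CCR3, had 9.995, 11.2 and 20.1 CPM in ANG8 livers, against 2.02, 1.93 and 3.36 CPM in Ad_GFP livers. Every ANG8 library lay above every Ad_GFP library (log2 fold change 2.50, SE 0.33, adjusted p 0.000206). The eosinophil marker Siglecf averaged 0.607 CPM in ANG8 livers and 0.256 CPM in Ad_GFP livers and did not pass the filter, and Ear1, Prg2 and Mcpt4 were at 0 in every library. The summed level of the eosinophil and mast cell list, 4.37 to 6.88 CPM in ANG8 libraries and 4.43 to 6.52 CPM in Ad_GFP libraries, was mostly Kit, a mast cell and progenitor gene that averaged 4.54 CPM in ANG8 livers and 4.68 CPM in Ad_GFP livers. The part of eosinophils in the Ccl24 change was not tested. Its receptor Ccr3 had 3.04, 1.803 and 1.76 CPM in ANG8 livers and 0.633, 2.22 and 1.82 CPM in Ad_GFP livers, with overlap between the groups.

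Ccl3 and Ccl4, macrophage inflammatory proteins that attract monocytes and T cells, both rose. Ccl3 had 15.2, 15.2 and 7.16 CPM in ANG8 livers, against 3.80, 2.44 and 2.69 CPM in Ad_GFP livers (log2 fold change 2.06, SE 0.37, adjusted p 0.00185). Ccl4 had 11.95, 13.4 and 11.3 CPM in ANG8 livers, against 3.04, 3.04 and 4.17 CPM in Ad_GFP livers (log2 fold change 1.84, SE 0.30, adjusted p 0.00108). For both genes the groups did not overlap. Ccl5, a CC chemokine made by T cells and NK cells among others, had 47.1, 39.8 and 61.5 CPM in ANG8 livers, against 31.5, 25.1 and 38.4 CPM in Ad_GFP livers. The groups did not overlap, but the difference did not pass the test (log2 fold change 0.64, SE 0.22, adjusted p 0.0649). It passed in 4 of 13 alternatives, namely without a filter, with the replicate block, with the mitochondrial share in the model and without Ad_GFP replicate 3, with a lowest adjusted p of 0.0102.

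Ccl6 and Ccl9 are related CC chemokines of rodents, and the difference between them was not tested. Ccl6 had 34.5, 38.8 and 22.6 CPM in ANG8 livers, against 7.78, 8.51 and 15.6 CPM in Ad_GFP livers (log2 fold change 1.58, SE 0.40, adjusted p 0.0192). Its groups did not overlap, yet its call was lost when replicate 1 or replicate 2 of either group was left out, or when the share of mitochondrial counts entered the model, the adjusted p reaching 0.0957. Ccl9 had 34.9, 42.0 and 64.5 CPM in ANG8 livers, against 47.3, 18.6 and 35.6 CPM in Ad_GFP livers, with overlap (log2 fold change 0.48, SE 0.32, adjusted p 0.374). With the share of mitochondrial counts in the model, Ccl9 passed the test (log2 fold change 0.97, adjusted p 0.0168), the setting under which Ccl6 did not. Ccl2, the main ligand of CCR2, had 4.49, 2.13 and 5.16 CPM in ANG8 livers and 1.64, 1.55 and 1.08 CPM in Ad_GFP livers. These libraries did not overlap, and the difference did not pass the test (log2 fold change 1.46, SE 0.56, adjusted p 0.0965).

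Ccl27a, which belongs to a family of skin-homing chemokines that bind CCR10, was the ligand that fell. It had 12.1, 12.3 and 10.4 CPM in ANG8 livers, against 22.6, 27.4 and 26.2 CPM in Ad_GFP livers (log2 fold change -1.13, SE 0.17, adjusted p 0.00051). The groups did not overlap. The value is uncertain as a measure of Ccl27a: its exons overlap Il11ra1 on the opposite strand, the strand setting of the counting is not given in the sources used here, and 33.3% of its 75-base stretches also occur in Ccl27b and predicted genes. Il11ra1 averaged 35.7 CPM in ANG8 livers and 49.5 CPM in Ad_GFP livers (log2 fold change -0.47, SE 0.16, adjusted p 0.0535).

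Among the ligands of the CXC class, Cxcl10 and Cxcl9 are neighbouring interferon-inducible genes whose products bind CXCR3 on T cells and NK cells. Cxcl10 rose, Cxcl9 did not pass the test, and the difference between them was not tested. Cxcl10 had 53.7, 39.5 and 68.1 CPM in ANG8 livers, against 34.3, 17.5 and 24.9 CPM in Ad_GFP livers (log2 fold change 1.07, SE 0.24, adjusted p 0.00686). Exons of Cxcl10 overlap Art3 on the opposite strand, which averaged 0.64 CPM in ANG8 livers and 0.464 CPM in Ad_GFP livers. Cxcl9 had 58.2, 77.6 and 81.2 CPM in ANG8 livers, against 163, 49.9 and 72.8 CPM in Ad_GFP livers (log2 fold change -0.40, SE 0.33, adjusted p 0.478). The groups did not overlap for Cxcl10 and overlapped for Cxcl9, whose highest value was in Ad_GFP replicate 1. Without that library the Cxcl9 log2 fold change turned to 0.24 (adjusted p 0.574), and it was 0.06 with the mitochondrial share in the model. The ratio of Cxcl10 to Cxcl9 CPM was 0.922, 0.509 and 0.839 in ANG8 livers and 0.210, 0.350 and 0.343 in Ad_GFP livers, which is a description, since this ratio was chosen after its values were seen. Their receptor Cxcr3 had 2.46, 1.31 and 2.79 CPM in ANG8 livers and 2.97, 1.93 and 4.10 CPM in Ad_GFP livers, with overlap (log2 fold change -0.45, SE 0.49, adjusted p 0.607).

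**Figure D3:**
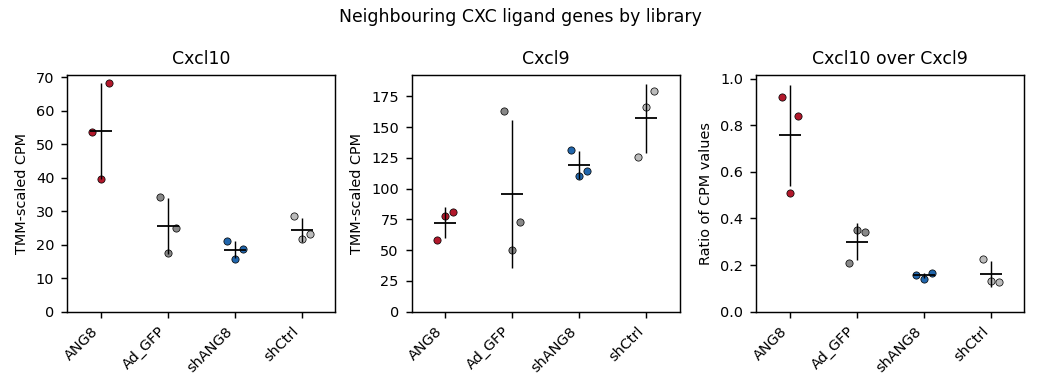
Level of Cxcl10 and Cxcl9 in CPM and the ratio of Cxcl10 to Cxcl9 in each of the 12 libraries, by group, with the group mean and 1 SD. The 3 ANG8 libraries (39.5 to 68.1 CPM) lie above the 3 Ad_GFP libraries (17.5 to 34.3 CPM) for Cxcl10, and the groups overlap for Cxcl9.

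The promoters of Cxcl10, Cxcl9, Cxcl1, Cxcl2 and Ccl3 are shown so that the sequence before called and uncalled inflammatory ligands can be set side by side. Each line gives the 250 bases before the start of the gene, from RefSeq on GRCm38.p6, read on the gene's own strand, and capitals mark matches on either strand to GAAANNGAA, a short form of the interferon-stimulated response element, to TTCNNNGAA, the interferon gamma-activated site, or to the NF-kappaB consensus.
Cxcl10 (chr5:92348890-92349139, minus strand): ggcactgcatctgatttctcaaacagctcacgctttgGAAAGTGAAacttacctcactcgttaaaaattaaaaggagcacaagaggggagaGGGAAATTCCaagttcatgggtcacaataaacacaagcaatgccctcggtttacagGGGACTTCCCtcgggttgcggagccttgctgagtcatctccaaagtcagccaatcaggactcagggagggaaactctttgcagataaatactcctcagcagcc
Cxcl9 (chr5:92328080-92328329, minus strand): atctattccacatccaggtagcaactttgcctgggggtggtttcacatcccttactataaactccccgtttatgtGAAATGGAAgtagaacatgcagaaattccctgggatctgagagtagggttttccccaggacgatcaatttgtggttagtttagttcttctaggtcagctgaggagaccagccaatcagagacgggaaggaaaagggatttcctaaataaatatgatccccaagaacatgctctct
Cxcl1 (chr5:90890995-90891244, plus strand): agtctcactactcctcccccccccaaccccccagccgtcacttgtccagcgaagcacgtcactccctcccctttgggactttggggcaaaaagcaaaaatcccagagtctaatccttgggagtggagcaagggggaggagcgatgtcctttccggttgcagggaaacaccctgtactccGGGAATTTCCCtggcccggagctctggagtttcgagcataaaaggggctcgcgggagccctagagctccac
Cxcl2 (chr5:90903649-90903898, plus strand): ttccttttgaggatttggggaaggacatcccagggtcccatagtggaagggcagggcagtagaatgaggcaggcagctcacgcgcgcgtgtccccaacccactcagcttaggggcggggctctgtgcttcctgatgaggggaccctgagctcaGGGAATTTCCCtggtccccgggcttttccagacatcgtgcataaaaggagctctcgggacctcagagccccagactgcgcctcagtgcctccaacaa
Ccl3 (chr11:83649379-83649628, minus strand): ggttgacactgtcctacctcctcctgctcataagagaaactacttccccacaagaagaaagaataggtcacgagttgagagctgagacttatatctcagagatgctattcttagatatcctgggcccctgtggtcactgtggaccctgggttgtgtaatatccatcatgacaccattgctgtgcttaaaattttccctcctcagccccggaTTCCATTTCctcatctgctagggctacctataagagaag

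The Cxcl10 window held 1 match to GAAANNGAA, with its first base at -213 from the start, and 2 to the NF-kappaB consensus, at -159 and -103. The Cxcl9 and Ccl3 windows each held 1 match to GAAANNGAA, at -175 and -39. The Cxcl1 and Cxcl2 windows each held 2 overlapping matches to the NF-kappaB consensus, at -71 and -70 and at -97 and -96. Of the 23 tested members with an entry in the promoter table, 5 held GAAANNGAA, 1 held TTCNNNGAA and 5 held the NF-kappaB consensus in this window, beside 7.13%, 7.02% and 3.9% of the 32851 promoters searched. A member counted if any of its promoters matched, whereas the promoters searched were counted singly. Each window shown above held a match, but the windows of the called members Ccl6, Ccl27a, Cx3cl1, Cx3cr1 and Cxcr6 held none. The 7 tested members without an entry included the called ligands Ccl24, Ccl4 and Cxcl16. A match is a description of the letters, and binding was not measured.

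Cxcl1, a neutrophil chemoattractant that binds CXCR2, had 34.9, 52.0 and 25.4 CPM in ANG8 livers and 35.0, 37.6 and 28.7 CPM in Ad_GFP livers (log2 fold change 0.15, SE 0.25, adjusted p 0.755). The groups overlapped. Cxcl12, the homeostatic ligand of CXCR4, had 92.9, 97.4 and 104 CPM in ANG8 livers, against 162, 101 and 129 CPM in Ad_GFP livers (log2 fold change -0.41, SE 0.18, adjusted p 0.147). Its receptor Cxcr4 had 5.14, 2.05 and 4.12 CPM in ANG8 livers and 2.78, 3.18 and 4.03 CPM in Ad_GFP livers, again with overlap (log2 fold change 0.18, SE 0.34, adjusted p 0.779).

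Cx3cl1 and Cxcl16 are the chemokines made as membrane-anchored proteins, and their receptors are Cx3cr1 and Cxcr6. Cxcl16 had 13.3, 14.3 and 16.7 CPM in ANG8 livers, against 7.40, 7.03 and 9.01 CPM in Ad_GFP livers (log2 fold change 0.92, SE 0.28, adjusted p 0.0408). Cxcr6, which marks tissue-resident T cells and NKT cells, had 4.93, 6.15 and 3.46 CPM in ANG8 livers, against 1.46, 1.33 and 1.41 CPM in Ad_GFP livers (log2 fold change 1.78, SE 0.57, adjusted p 0.0459). The groups overlapped for neither gene. Leaving out any 1 of the 6 libraries ended both calls, the adjusted p reaching 0.131 for Cxcl16 and 0.136 for Cxcr6, and the mitochondrial share in the model also ended that of Cxcr6 (adjusted p 0.0993). Exons of Cxcl16 overlap Zmynd15 on the opposite strand, which averaged 12.5 CPM in ANG8 livers and 11.5 CPM in Ad_GFP livers, so the Cxcl16 level is uncertain.

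Cx3cl1, or fractalkine, had 1.74, 1.72 and 2.49 CPM in ANG8 livers, against 0.190, 0.0740 and 0.740 CPM in Ad_GFP livers (log2 fold change 2.53, SE 0.80, adjusted p 0.0448). Cx3cr1, the fractalkine receptor of monocytes and macrophages, had 6.30, 11.1 and 5.16 CPM in ANG8 livers, against 1.52, 0.888 and 2.82 CPM in Ad_GFP livers (log2 fold change 2.09, SE 0.49, adjusted p 0.00998). Neither gene's groups overlapped. Exons of Cx3cr1 overlap Gm33858 on the opposite strand, which averaged 0.188 CPM in ANG8 livers and 0.0857 CPM in Ad_GFP livers. Cx3cl1 was tested only because its ANG8 libraries passed the filter, and without any filter its adjusted p was 0.0281. That setting is more permissive, with 96 genes called between the control viruses beside 0 in the main fit. The call of Cx3cl1 was lost without Ad_GFP replicate 1 or 2 or any 1 ANG8 library, the adjusted p reaching 0.165, and that of Cx3cr1 without ANG8 replicate 2, at 0.0507.

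Ccr2, the receptor of CCL2 on inflammatory monocytes, had 17.5, 15.8 and 10.1 CPM in ANG8 livers and 6.52, 6.15 and 12.7 CPM in Ad_GFP livers. Its groups overlapped through Ad_GFP replicate 3 (log2 fold change 0.77, SE 0.32, adjusted p 0.125). Xcr1, the XCL1 receptor of cross-presenting dendritic cells, had 2.46, 1.89 and 3.82 CPM in ANG8 livers, against 0.886, 1.33 and 1.41 CPM in Ad_GFP livers, without overlap and without passing the test (log2 fold change 1.17, SE 0.46, adjusted p 0.104).

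The members given next were not called. Ccr1, a receptor of CCL3 and CCL5 on monocytes and neutrophils, averaged 2.43 CPM in ANG8 livers and 1.28 CPM in Ad_GFP livers, and Cxcl14, a chemokine of epithelia, averaged 2.24 CPM in ANG8 livers and 0.519 CPM in Ad_GFP livers. For both, the ANG8 libraries all lay above the Ad_GFP libraries. Ccl25, the ligand of CCR9 known from thymus and gut, averaged 4.19 CPM in ANG8 livers and 7.06 CPM in Ad_GFP livers, with every ANG8 library below every Ad_GFP library. Its log2 fold change was -0.76 (SE 0.37, adjusted p 0.195), and with the mitochondrial share in the model -1.21 (adjusted p 0.0355). Ccl25 is also uncertain, since its exons overlap Elavl1 on the opposite strand. Elavl1 averaged 25.5 CPM in ANG8 livers and 26.2 CPM in Ad_GFP livers (log2 fold change -0.04, SE 0.17, adjusted p 0.918). Unlike Ccl27a, Ccl25 shared 0% of its 75-base stretches with other genes. Cxcl2, Xcl1, Ccr7, Ccr9 and Cxcr2 had overlapping groups at mean levels of 2.43 CPM or less in ANG8 livers.

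The summed level of the receptors was 72.7, 68.4 and 61.7 CPM in ANG8 livers, against 35.5, 34.1 and 49.0 CPM in Ad_GFP livers. The summed level of the ligands averaged 473 ± 38.8 CPM in ANG8 livers and 416 ± 109 CPM in Ad_GFP livers (SD, n = 3 each), and these sums are descriptions.

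**Figure D4:**
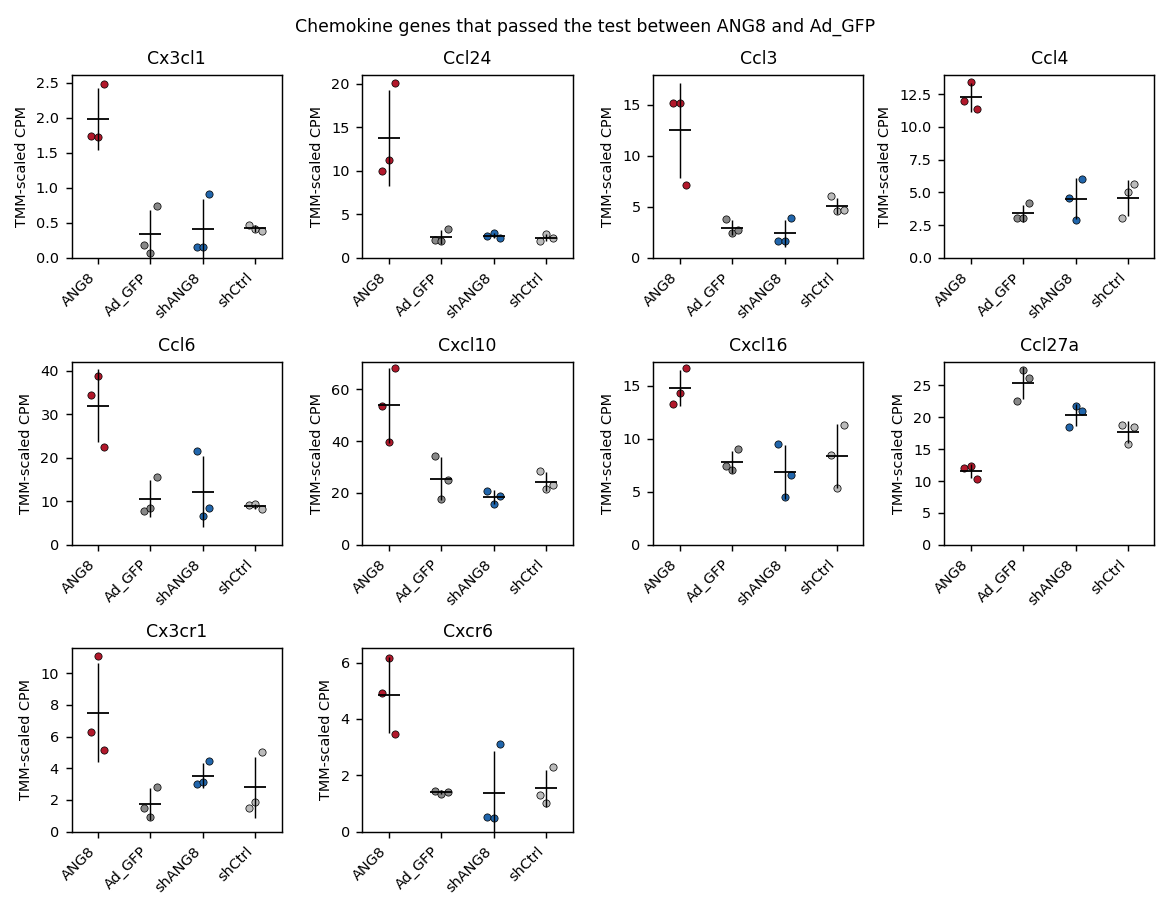
Level in CPM of 10 of the 11 members called under overexpression, by library and group, with the group mean and 1 SD (bars that would pass below 0 are cut at the axis). The ANG8 libraries lie apart from the Ad_GFP libraries for each gene shown.

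Counts of called genes in the lists of other genes are read beside the 7.08% of all tested genes that were higher and the 6.39% that were lower. Of 34 tested genes of chemokine receptor signalling, 18 rose and 0 fell, with a median log2 fold change of 0.78. They included Prex1 and Vav1, exchange factors for Rac, at 1.16 and 1.37, and Arrb2, the beta-arrestin that turns receptors off, at 0.81. Of 9 tested atypical receptors and other chemoattractant genes, 2 rose, among them Cmklr1, the chemerin receptor, which averaged 6.08 CPM in ANG8 livers and 2.03 CPM in Ad_GFP livers. Of 26 tested cytokine and interferon pathway genes upstream of chemokines, 4 rose, among them Irf7, Ifngr2 and Il4ra, and 1 fell (Il1r1), while Il13 and Il17a were at 0 in every library.

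Macrophage markers rose in 10 of 13 tested genes, with a summed level of 1103 to 1428 CPM in ANG8 libraries and 448 to 607 CPM in Ad_GFP libraries. Of 17 tested T cell and NK cell markers, 9 rose and 1 fell, with sums of 163 to 185 CPM in ANG8 libraries and 65.6 to 92.3 CPM in Ad_GFP libraries. Those that rose included Cd8a, Klrk1, Lck and Gzma. Cd4 fell, with 2.90 CPM in ANG8 livers and 6.52 CPM in Ad_GFP livers (adjusted p 0.0209). The 7 not called included the NK cell genes Ncr1 (0.583 and 0.705 CPM), Klrb1c (0.763 and 0.690 CPM) and Eomes (0.579 and 0.868 CPM). Monocyte markers rose in 3 of 6 tested genes, namely Fcgr1, Plac8 and Csf1r, while Ly6c2, Lyz2 and Itgam were not called. Csf1r is also in the macrophage list and averaged 150 CPM of a mean monocyte sum of 255 CPM in ANG8 livers. The 2 results are therefore not separate. Of the other lists, 0 of 3 neutrophil, 0 of 5 dendritic cell, 0 of 8 B cell, 0 of 11 endothelial, 0 of 10 stellate and 0 of 5 cholangiocyte markers were called. Hepatocyte markers fell in 8 of 10 tested genes. The part of these shifts in the chemokine and receptor changes was not tested.

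**Figure D5:**
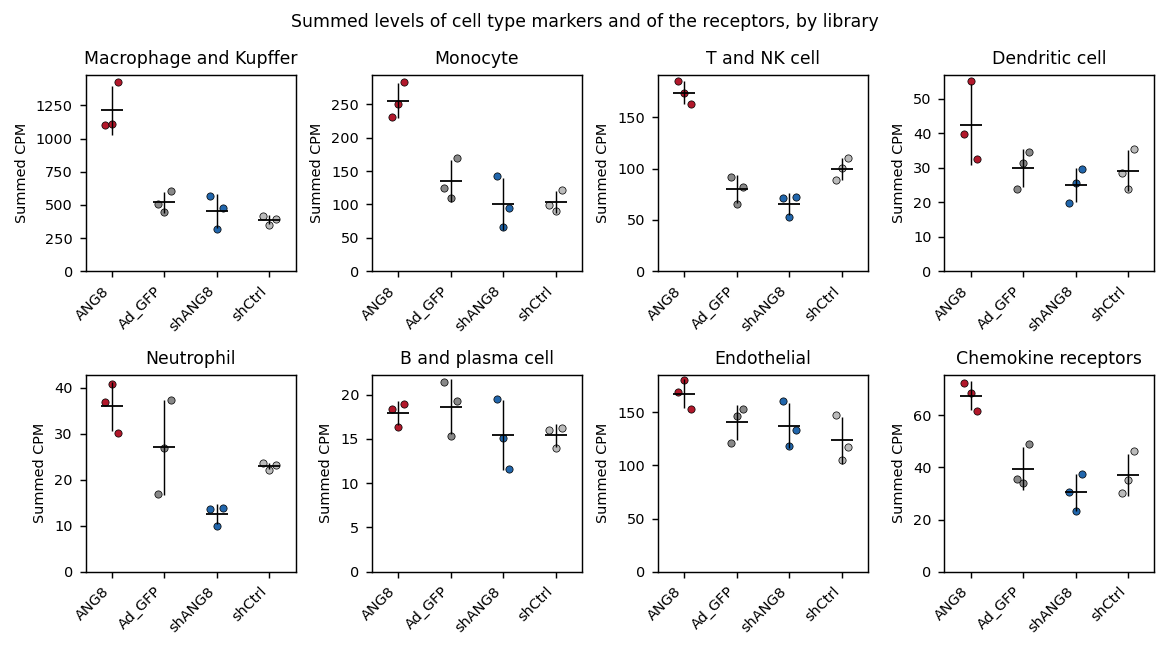
Summed CPM of the markers of 7 cell types and of the chemokine receptors in each library, by group, with the group mean and 1 SD. The ANG8 libraries sit above the other libraries for macrophage markers (1103 to 1428 CPM in ANG8 and 448 to 607 CPM in Ad_GFP libraries). Csf1r enters both the macrophage and the monocyte sum.

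In shANG8 livers, no chemokine ligand and no receptor passed the test against shCtrl livers. Over all tested genes 0.191% were called, and DESeq2 called 0 members beside 0.695% of all tested genes. At an unadjusted p under 0.05 there were 1 ligand (Ccl3) and 2 receptors (Cxcr2 among them), beside 7.93% of all tested genes. The 3 shANG8 libraries all lay below the 3 shCtrl libraries for 2 ligands (Ccl3 and Cxcl10) and 3 receptors (Cxcr2 and Xcr1 among them) and above for none, beside 6.78% of all tested genes lower and 6.16% higher in this way.

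Ccl3 had 1.67, 1.65 and 3.94 CPM in shANG8 livers, against 6.04, 4.65 and 4.71 CPM in shCtrl livers (log2 fold change -1.07, SE 0.38, adjusted p 0.467). The groups did not overlap, and the difference did not pass the test. Cxcr2, the receptor of neutrophil chemokines, had 1, 0 and 0 counts in shANG8 livers, against 8, 7 and 16 counts in shCtrl livers (adjusted p 0.236). Cxcl10 had 20.9, 15.7 and 18.8 CPM in shANG8 livers, against 28.4, 21.7 and 23.1 CPM in shCtrl livers (log2 fold change -0.40, SE 0.24, adjusted p 0.714). Cxcl9 had 132, 111 and 114 CPM in shANG8 livers, against 126, 166 and 179 CPM in shCtrl livers, with overlap (adjusted p 0.824). Neutrophil markers summed to 9.91 to 13.8 CPM in shANG8 libraries and 22.1 to 23.5 CPM in shCtrl libraries. Of the 3 tested, 0 were called, and most of the sum was Csf3r (means of 9.66 and 17.0 CPM). T cell and NK cell marker sums also did not overlap (52.9 to 72.2 CPM in shANG8 and 88.5 to 110 CPM in shCtrl libraries). The same held for cholangiocyte markers (21.6 to 38.7 and 48.8 to 71.1 CPM), while sums of the other cell type lists overlapped. The part of neutrophils in the Cxcr2 counts was not tested.

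Ccl24, Ccl4, Ccl6, Ccl27a, Cxcl16, Cxcr6, Cx3cl1 and Cx3cr1, all called under overexpression, had overlapping libraries in the knockdown comparison. Ccl24 had 2.58, 2.91 and 2.25 CPM in shANG8 livers and 1.97, 2.73 and 2.28 CPM in shCtrl livers (log2 fold change 0.15, SE 0.34, adjusted p 0.958). Ccl4 had 4.55, 2.91 and 6.05 CPM in shANG8 livers and 3.05, 5.06 and 5.62 CPM in shCtrl livers (log2 fold change -0.02, SE 0.30, adjusted p 0.994). These levels of Ccl24 and Ccl4 were below the lowest ANG8 library in all 6 libraries. Ccl6 had 21.7, 6.61 and 8.44 CPM in shANG8 livers and 9.16, 9.29 and 8.21 CPM in shCtrl livers, the highest value being that of shANG8 replicate 1 (adjusted p 0.842). Ccl27a had 18.5, 21.7 and 21.0 CPM in shANG8 livers and 18.9, 15.8 and 18.5 CPM in shCtrl livers (adjusted p 0.825).

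For the tethered ligands and their receptors, Cxcl16 had 9.55, 4.48 and 6.54 CPM in shANG8 livers and 8.48, 5.33 and 11.3 CPM in shCtrl livers (adjusted p 0.873). Cxcr6 had 0.531, 0.472 and 3.09 CPM in shANG8 livers and 1.29, 1.02 and 2.28 CPM in shCtrl livers (adjusted p 0.982). Both genes varied more within a group than between the groups. Cx3cl1 had 0.152, 0.157 and 0.914 CPM in shANG8 livers and 0.475, 0.410 and 0.380 CPM in shCtrl livers (adjusted p 0.997). Cx3cr1 had 3.03, 3.15 and 4.43 CPM in shANG8 livers and 1.49, 1.84 and 5.02 CPM in shCtrl livers (adjusted p 0.913).

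Among the abundant members, Ccl5 had 37.3, 24.3 and 42.0 CPM in shANG8 livers and 30.7, 38.0 and 42.4 CPM in shCtrl livers (adjusted p 0.955). Cxcl12 had 191, 182 and 147 CPM in shANG8 livers and 135, 166 and 156 CPM in shCtrl livers (adjusted p 0.864). Ccl9 had 47.1, 43.6 and 68.8 CPM in shANG8 livers and 42.8, 56.7 and 71.3 CPM in shCtrl livers (adjusted p 0.975). All 3 ligands overlapped between the groups. Ccr2 had 6.29, 4.41 and 6.89 CPM in shANG8 livers and 5.23, 8.68 and 10.6 CPM in shCtrl livers (adjusted p 0.772). The summed level of the receptors averaged 30.5 ± 7.13 CPM in shANG8 livers and 37.2 ± 8.21 CPM in shCtrl livers, and that of the ligands 479 ± 36.1 CPM in shANG8 livers and 506 ± 57.2 CPM in shCtrl livers (SD, n = 3 each).

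The overexpression effect and the knockdown effect were then compared by the test of their difference, in which 4 ligands were higher and 1 was lower and 1 receptor was higher. The shares over all tested genes were 3.72% higher and 2.9% lower. The difference was 3.14 on the log2 scale for Ccl3 (SE 0.52, adjusted p 0.00284), 2.35 for Ccl24 (SE 0.47, adjusted p 0.00849), 1.86 for Ccl4 (SE 0.43, adjusted p 0.0169) and 1.47 for Cxcl10 (SE 0.33, adjusted p 0.0164). It was -1.33 for Ccl27a (SE 0.24, adjusted p 0.00389), with the limits given above. For Ccl6, Cx3cl1, Cxcl16, Cx3cr1 and Cxcr6, which rose under overexpression, the difference did not pass the test, with adjusted p from this test of 0.267, 0.205, 0.0857, 0.137 and 0.172 in that order.

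Between the control viruses, no member passed the test (shCtrl over Ad_GFP), nor did any tested gene (0%). DESeq2 called 0 members beside 0.313% of all tested genes, and at an unadjusted p under 0.05 there were 5 ligands and 1 receptor beside 8.76% of all tested genes. Cxcl1 had 20.4, 14.8 and 22.0 CPM in shCtrl livers and 35.0, 37.6 and 28.7 CPM in Ad_GFP livers (log2 fold change -0.83, SE 0.25, adjusted p 0.442). Ccr3 had 0.339, 0.410 and 0.380 CPM in shCtrl livers and 0.633, 2.22 and 1.82 CPM in Ad_GFP livers (log2 fold change -2.02, SE 0.63, adjusted p 0.442). The shCtrl libraries lay above the Ad_GFP libraries for Ccl3 and Xcr1 and below for Ccl2, Ccl27a, Cxcl1 and Ccr3, beside 7.66% of all tested genes higher and 8.45% lower in this way. The overexpression and knockdown comparisons share no library.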

How the data were processed

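Liver RNA was sequenced from 12 libraries in 4 groups of 3. Per the submitters' processing notes, the authors used CASAVA 1.8.2 and featureCounts 1.5.0-p3 and the build mm9, and the deposited values are unnormalized counts of reads for each gene. For the aligner, the annotation release and the strand setting, nothing is given in the sources used here. Coordinates in the deposited table were identical to GENCODE vM21 on GRCm38 for all 62 members, so positions are GRCm38. There were 0 count columns outside the series.

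Counts were filtered with filterByExpr (minimum count 10), scaled by TMM and fitted with the robust quasi-likelihood model of edgeR 4.0.16 in R 4.3.3 over all 12 libraries, and p-values were adjusted by Benjamini-Hochberg over 14686 genes with a threshold of 0.05. The filter kept at least 99.9% of the counts of each library. The SE was derived from the log2 fold change and the F statistic (absolute change over root F). The fit was tested on simulated data with known changes in genes above 1 CPM, 66 or 67 genes for each fold. For overexpression it recovered 4.48% of 1.5-fold, 35.8% of 2-fold and 87.9% of 4-fold changes. For knockdown the shares were 4.48%, 46.3% and 78.8%, so smaller changes were mostly missed in the simulation. In the data, 1978 genes were called under overexpression and 28 under knockdown. The Benjamini-Hochberg cutoff depends on such numbers, so the simulated shares need not hold for the data. CPM per kilobase used the gene length of the deposited table. Alternatives were RLE size factors, no filter, a stricter filter (1 CPM in 3 libraries), DESeq2 1.42.0, only the groups compared, a block for the replicate number, the mitochondrial share as a covariate, and each library left out.

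Members and gene lists were chosen with earlier results of these data known. Overexpression values in each library were given for called members and for the 4 ligands and 4 receptors with the highest mean level per kilobase. The receptor withheld below is an exception. Knockdown values were given for the same members except Cxcr3 and Cxcr4, and control virus statistics only for Cxcl1 and Ccr3. Other members were named after their values were seen. Promoter windows came from RefSeq on GRCm38.p6. The values of 1 receptor and of 1 listed pathway gene are not reported here, although both enter the counts and sums.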

Additional observations from a re-analysis of the deposited data

How the results depend on the processing

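Of the 11 overexpression calls, 6 passed the test in each alternative run, among them Ccl24, Ccl27a, Ccl3, Ccl4 and Cxcl10, and none of the 11 reversed. The count of ligands called under overexpression was 8 and ranged from 5 to 8 when 1 library was left out, with 5 without replicate 1 or 2 of either group, and that of receptors was 3 and ranged from 1 to 3, with 1 without ANG8 replicate 2. Under knockdown 0 members were called in every alternative run. Between the control viruses, 0 ligands were called, with 1 (Cxcl1) without a filter on low counts and 0 to 1 when 1 library was left out (Cxcl9 without Ad_GFP replicate 1). For the difference between the effects, 1 receptor was called, with 3 without a filter, 2 with DESeq2, 2 with the mitochondrial share as a covariate and 1 to 3 when 1 library was left out. The cause of these shifts was not tested. Labels give the groups the same replicate numbers, but same-numbered libraries did not deviate together in every pair (correlations from -0.0667 to 0.186), so the numbers were not taken as pairs. With the replicate block, 9 ligands and 3 receptors were called under overexpression, 0 and 0 under knockdown, and 7 ligands and 2 receptors for the difference, Ccl5 being among the added ligands in both. Over all tested genes, the block gave 2600 calls beside 1978 under overexpression and 55 beside 28 under knockdown. It gave 1550 calls beside 972 for the difference and 5 beside 0 between the control viruses. A shared effect of the replicate number was not tested.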

Other observations

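Members below the filter on low counts held a few uneven values, given here as counts per library with no test. Cxcl5, a neutrophil chemoattractant, had 51, 0 and 0 counts in shANG8 libraries and 4, 3 and 0 counts in shCtrl libraries. Cxcl3, of the same family, had 26, 0 and 0 counts in shANG8 libraries and 0 in each shCtrl library. Cxcl13, which attracts B cells, had 44, 1 and 0 counts in shANG8 libraries and 0, 0 and 6 counts in shCtrl libraries. All 3 high values were in shANG8 replicate 1. Ccl20, the ligand of CCR6, had 4, 1 and 4 counts in ANG8 libraries and 0 counts in the other 9 libraries. Ccl7, a monocyte chemoattractant, had 4, 0 and 30 counts in ANG8 libraries and 0, 4 and 1 counts in Ad_GFP libraries.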
